A study of Mus musculus with 43 samples.

Results

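Sorted microglia and NeuN-sorted neuronal nuclei from the visual cortex of control mice were compared by RNA sequencing. The comparison took the 4 control microglia libraries and the 5 control neuron libraries, 9 of the 43 libraries of the series, by their sample titles and without reference to any measured value. The labels call the control animals, CK, wild type. In the wider study they are the controls of CK-p25 mice, in which Camk2a-tTA, active in forebrain excitatory neurons, drives tetO-CDK5R1/GFP and so the protein p25, for 6 weeks of induction. Stimulated animals of that study received GENUS, a sensory treatment, and none of the 9 control libraries is labelled as treated. The age and the sex of the control animals are not stated in the labels used here, and they do not say whether each library is from its own animal. A p-value below speaks only of the spread among libraries, which may be technical.

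The neuron libraries hold nuclear RNA of nuclei sorted with a NeuN antibody, made with a stranded total RNA kit for low input. The microglia libraries hold RNA of whole cells sorted with CD11b and CD45 antibodies, made with a full-length cDNA kit for ultra-low input. Cell type, compartment, antibody and kit therefore change together, and by the sex-linked RNA given below the sex of the animals may change with them. Their parts in any difference cannot be told apart. In bulk libraries fewer cells of a type and less RNA per cell cannot be told apart either. Values are FPKM (fragment counts divided by transcript length and by the library's mapped total), as deposited by the authors, rescaled here so that every library has the same sum without small RNA genes. A level below is such a rescaled FPKM, and a difference is microglia minus neuronal nuclei on the scale log2(level + 1), which understates the change of low genes. Only differences shown to exceed 4-fold were called, by limma's treat test against an interval of 4-fold either way, at a Benjamini-Hochberg adjusted p under 0.05 over all tested genes.

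Microglia are the resident macrophages of the brain. They depend on the growth factor receptor Csf1r, survey the tissue with purine and fractalkine receptors, engulf debris and synapses tagged by complement, and degrade them in lysosomes. Cortical neurons release glutamate or GABA from synaptic vesicles and hold receptors, scaffolds and voltage-gated channels at their membranes. In a nucleus the RNA is enriched in unspliced transcripts and in long noncoding RNAs that stay there, while most messenger RNA of small, stable proteins lies in the cytoplasm.

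The groups were checked with 6 markers, which separated the libraries. P2ry12, an ADP receptor that steers microglial processes to damage, was at 1720, 1645, 1623 and 1663 in microglia 1 to 4 and at 1.18, 0.890, 0.599, 0.284 and 0.330 in nuclei 1 to 5. Tmem119, a membrane protein typical of microglia, was at 1254, 1301, 1341 and 1253 in microglia and at 0.536, 0, 0.227, 0 and 0 in nuclei. Csf1r was at 1884, 1976, 1781 and 1697 in microglia and at 0.414, 0.695, 0.234, 0 and 0 in nuclei. Every microglia library was above every nuclei library for these genes, with differences of 10.002 (SE 0.15) for P2ry12, 10.15 (SE 0.13) for Tmem119 and 10.53 (SE 0.16) for Csf1r. Snap25, a membrane fusion protein of the synapse, was at 368, 385, 399, 319 and 374 in nuclei 1 to 5 and at 1.55, 3.30, 6.86 and 3.70 in microglia 1 to 4. Slc17a7, which loads glutamate into vesicles, was at 106, 120, 119, 116 and 103 in nuclei and at 0.143, 0.283, 1.48 and 1.20 in microglia. Syt1, the calcium sensor of vesicle release, was at 403, 431, 424, 440 and 396 in nuclei and at 0.0408, 0.258, 0.699 and 0.622 in microglia. The nuclei were above every microglia library for all 3 genes, with differences of -6.36 (SE 0.25) for Snap25, -6.08 (SE 0.22) for Slc17a7 and -8.25 (SE 0.14) for Syt1. The highest microglial values of each of these neuronal genes were in libraries 3 and 4. The data thus carry both labels of the comparison.

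**Figure D1:**
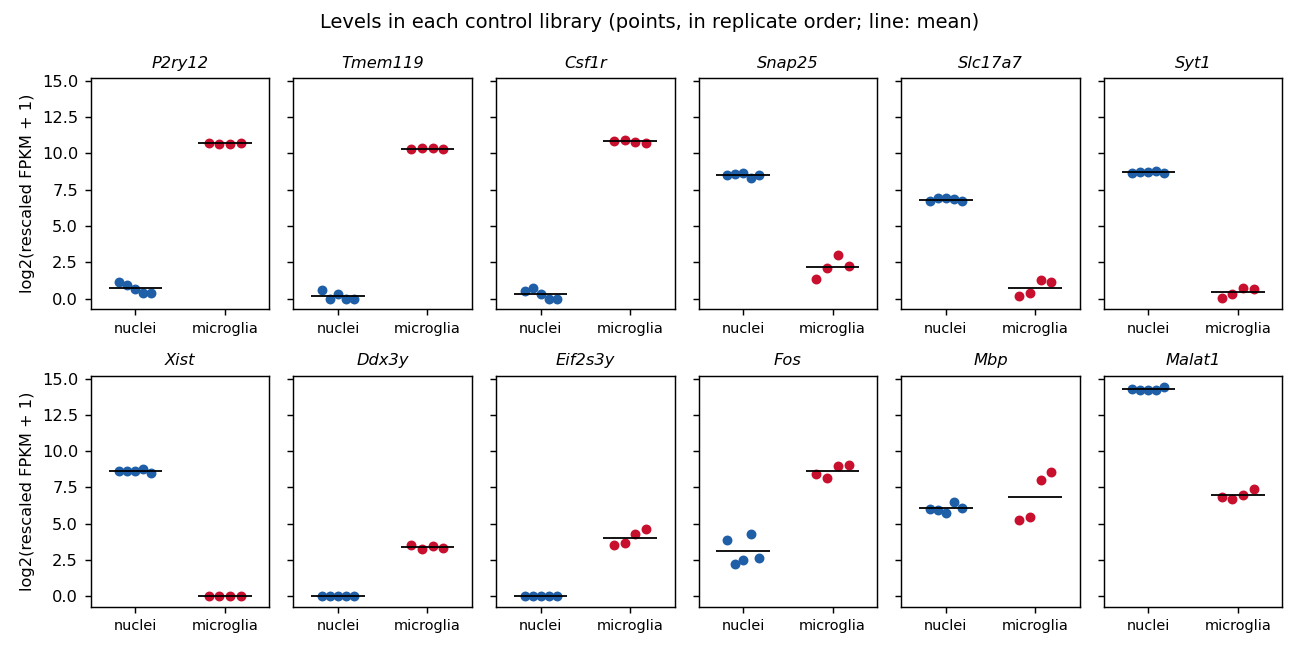
Level of 12 genes in each control library, as log2(rescaled FPKM + 1), with 1 point per library in replicate order and a line at the group mean (5 libraries of neuronal nuclei in blue, 4 of microglia in red). The 6 markers in the upper row separate the groups, Xist and the Y-linked genes Ddx3y and Eif2s3y are listed at 0 in every library of 1 group, and Mbp is high in microglia 3 and 4.

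Library properties also differed. Small RNA genes held 73.5% to 83.7% of the summed deposited FPKM in nuclei and 0.127% to 0.164% in microglia, and they were left out. The nuclei listed 11994 to 12148 genes at a level of at least 1 and the microglia 8948 to 9291. The 100 highest genes held 20.1% to 22.7% of the summed level in nuclei and 41.1% to 43.5% in microglia (exact permutation test over the libraries, two-sided, p = 0.0159, the smallest possible, adjusted p = 0.0190 over 12 library values). Over the tested genes, log2(level + 1) values correlated across genes (which are not independent replicates) at 0.939 to 0.956 among nuclei, 0.981 to 0.988 among microglia and -0.105 to -0.0699 between them. Xist, the RNA that coats the inactive X chromosome of female cells, was at 360 to 427 in all nuclei and listed at 0 in all microglia, while the Y-linked Ddx3y (8.64 to 10.7 in microglia) and Eif2s3y (10.7 to 23.5) were listed at 0 in all nuclei. Every nuclei library thus showed the sex-linked RNA of female cells and every microglia library that of male cells, though the labels used here give no sex. If the sampled animals differed in sex in this way, sex changes with the cell type. The parts of sex and cell type then cannot be told apart for any gene, on the sex chromosomes or elsewhere. The median difference of all tested genes was -1.08, against -0.14 when libraries were scaled by median ratios and -0.15 with the deposited values, so list medians below are set against -1.08.

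Of 12592 tested genes, 1117 (8.87%) were called higher in microglia and 3508 (27.9%) higher in neuronal nuclei. The split depends on the scaling: median-ratio scaling gave 2041 (15.9%) and 2640 (20.6%) of 12823 genes, and all 1117 microglial and 2640 (21% of tested) neuronal calls held in 3 scalings, the equal sums, the median ratios and the deposited values. Keeping small RNA genes in the sums, which lowers every other level of the nuclei, gave 2598 and 1035 calls, and then 30 of 30 microglia markers and 19 of 26 neuron markers were called. A call of higher in nuclei that was lost under other scalings, or only with small RNAs kept, is named as such below. The groups of libraries did not overlap for 3226 genes (25.6%) that were higher in microglia and 7135 (56.7%) that were higher in nuclei. A test against no difference at all passed 11164 genes (88.7%), which is why only large differences are described. Against an 8-fold interval 555 genes (4.41%) were called higher in microglia and 1962 (15.6%) higher in nuclei.

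The called differences reached far beyond the 4-fold interval. The median size was 3.57 in either direction. A difference of at least 8 on the log2 scale was reached by 33 genes in microglia, up to C1qb, and by 14 in nuclei, up to Meg3. A total of 106 genes were at 10 or more in every microglia library and under 0.1 in every nuclei library, and 441 genes showed the reverse. With the deposited values these counts were 149 and 277. Untreated CK-p25 animals gave 4 microglia and 5 neuron libraries that are not among the 9. In them 858 of the 1117 microglial calls (76.8%, and 80.9% of the 1061 calls made there) and 3389 of the 3508 neuronal calls (96.6%, and 86.2% of 3933) were called in the same direction, and 0 were called in the opposite one. By their titles these too are NeuN nuclei and CD11b and CD45 cells. Xist was at 375 to 439 in the CK-p25 nuclei and listed at 0 in the CK-p25 microglia, and Ddx3y was at 7.23 to 9.19 in the microglia and listed at 0 in the nuclei. Compartment, antibody and sex-linked RNA thus changed with the cell type there as well, and the overlap cannot tell their parts apart.

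**Figure D2:**
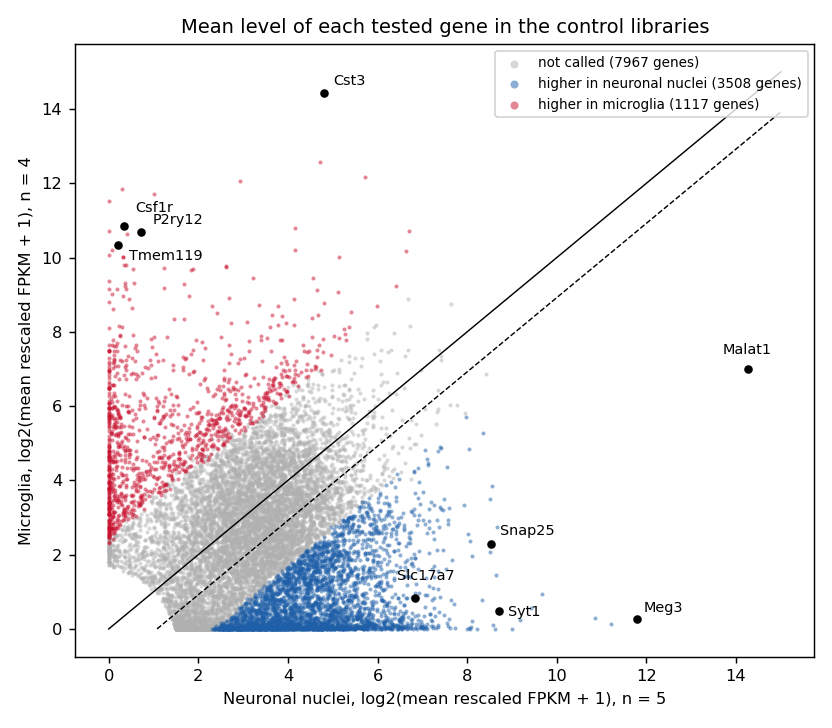
Mean level of the 12592 tested genes in 5 libraries of neuronal nuclei (x axis) and 4 libraries of microglia (y axis), both as log2(mean rescaled FPKM + 1). Red points are the 1117 genes called higher in microglia and blue points the 3508 called higher in nuclei, the solid line marks equal levels and the dashed line the median difference of -1.08.

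The largest microglial difference was that of C1qb, a chain of the complement starter C1q. It was at 3819, 4075, 3529 and 3311 in microglia and at 1.14, 0, 0, 0 and 0 in nuclei, a difference of 11.62 (SE 0.22, adjusted p = 1.11e-11). C1qc, another chain, was at 3117, 3191, 2768 and 2607 in microglia and listed at 0 in all 5 nuclei libraries. Tyrobp, the signalling adaptor of Trem2, was at 1706, 1664, 1748 and 1623 in microglia and listed at 0 in all nuclei. Neither microglial range came near the nuclei. Ctss, a lysosomal protease that works at neutral pH, was at 3769, 3510, 3135 and 2987 in microglia and between 0 and 1.72 in nuclei. The 15 largest differences also held C1qa, Csf1r, Tmem119, Selplg, Ccl4, P2ry12, Fcer1g, Laptm5, Cst3, Fcgr3 and Fcrls, from 10.53 for Csf1r down to 9.43 for Fcrls.

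By level rather than difference, Cst3, which encodes the protease inhibitor cystatin C, stood first in microglia at 20968, 23027, 24376 and 20655. It was also present in nuclei at 20.2 to 31.5. Ctsd, an aspartic protease of the lysosome, followed at 5234 to 6844 in microglia and 20.9 to 31.7 in nuclei. Tmsb4x, which binds actin monomers, was at 4306 to 4843 and 43.6 to 64.7. These abundant microglial genes were thus listed above 0 in every nuclei library too, unlike C1qc and Tyrobp.

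All 30 genes of a list of microglia markers were called higher in microglia, against 8.87% of all tested genes, with a median difference of 9.10. Sall1, a zinc finger factor that among brain macrophages marks microglia, had the smallest difference of the list at 4.07 (SE 0.14), from 30.4, 35.8, 32.9 and 35.9 in microglia and 0.804 to 1.82 in nuclei. Trem2, a lipid receptor, was at 587 to 688 in microglia and Cx3cr1, the fractalkine receptor, at 586 to 678, and neither exceeded 1.39 in nuclei. P2ry13, a purine receptor, was at 500 to 650 in microglia and 0.303 to 2.94 in nuclei.

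Complement and Fc receptor genes were called higher in microglia for 13 of 15 tested members, against 8.87% of all tested genes. Of the 19 listed, 4 did not reach the minimum mean level of 1 over the 9 libraries. Beside the C1q chains the called members were mostly receptors. Itgam and Itgb2, which form complement receptor 3, were at 171 to 183 and 117 to 145 in microglia, and neither exceeded 0.322 in nuclei. C5ar1, the receptor for the fragment C5a, was at 53.5 to 67.0 in microglia and listed at 0 in all nuclei. The components C3 and C2 were among the untested members, and C4b had values of 1.25 to 4.71 in microglia and 0 to 0.493 in nuclei. Cfp, properdin, was not called and pointed the other way, at 7.54 to 17 in nuclei and 1.35 to 3.97 in microglia.

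Of 20 tested transcription factors of the macrophage lineage, 11 (55%) were called higher in microglia, against 8.87% of all tested genes, with a median difference of 3.13. Spi1, which encodes the lineage factor PU.1, was at 146, 171, 151 and 159 in microglia and listed at 0 in all nuclei. Irf8, its partner factor, was at 103, 129, 106 and 117 in microglia and 0 to 0.652 in nuclei, and Irf5 was at 132 to 136 against 0 to 0.506. Fli1 (30.9 to 40.4 against 0 to 0.441) and Runx1 (8.5 to 10.3, listed at 0 in nuclei) were also called. Other factors of the list were shared with neurons. Mef2c was at 41.1 to 47.5 in microglia and 103 to 132 in nuclei, Mef2a at 59.7 to 75.3 and 34.4 to 46.4, and Maf at 5.87 to 10.4 and 6.86 to 8.87, and none of the 3 was called.

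The promoters of these genes were read for the letters GAGGAAG, a purine-rich form of the sequence PU.1 is known to bind, on both strands, within the window from 250 bases before to 50 bases after each gene's start in RefSeq (GRCm38.p6). Of the 1117 genes called higher in microglia 908 (81.3%) had a promoter in the table, and 232 of their 1156 promoters (20.1%) held the letters. The share was 12.9% of 8128 promoters of tested genes that were not called and 13.6% of all 32851 promoters of the table. Only 76.3% of the genes called higher in nuclei had a promoter there, so their share is not compared. The shorter letters GAGGAA, which lie inside the longer ones, were found in 34.5% of microglial, 25.9% of uncalled and 28.3% of all promoters. A match is a description of letters, not a binding site, and the sets also differ in base composition, with a median GC content of 57.7%, 60.7% and 52.7%.

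The letters were found for 7 of the 21 microglia markers and 4 of the 15 neuron markers that had a promoter in the table. As 30 and 26 markers are listed, too few matched for the shares to be compared. Single promoters were read only in the 250 bases before the start. In that part those of C1qb, Ctss, P2ry12, Fcer1g and Cst3 did not hold the letters, and the 50 bases after the start were not read for them singly. The 6 microglial stretches below were chosen among promoters with the letters and show where they lie, and the 2 neuronal ones show that the same letters occur in genes called higher in nuclei. The letters are in capitals, as GAGGAAG or as the reverse complement CTTCCTC. Each is read in the direction of transcription, with up to 40 bases on either side. The stretches are chr3:59210884-59210970 minus strand for P2ry13, chr17:48346320-48346400 plus strand for Trem2, chr4:130913237-130913315 plus strand for Laptm5, chr7:128062516-128062602 plus strand for Itgam, chr3:87263622-87263708 minus strand for Fcrls, chr4:136893062-136893148 minus strand for C1qc, chr11:118761042-118761123 minus strand for Rbfox3 and chr7:6730432-6730518 minus strand for Peg3. Between the letters and the gene's start lie 32 bases in Laptm5, 34 in Trem2, 41 in P2ry13, 77 in Itgam, 137 in Fcrls, 187 in C1qc, 35 in Rbfox3 and 52 in Peg3.
P2ry13: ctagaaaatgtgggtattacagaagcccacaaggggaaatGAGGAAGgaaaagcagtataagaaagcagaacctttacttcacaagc
Trem2: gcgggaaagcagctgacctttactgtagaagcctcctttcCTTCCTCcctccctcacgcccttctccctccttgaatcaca
Laptm5: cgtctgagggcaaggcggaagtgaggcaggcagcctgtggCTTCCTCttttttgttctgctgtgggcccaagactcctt
Itgam: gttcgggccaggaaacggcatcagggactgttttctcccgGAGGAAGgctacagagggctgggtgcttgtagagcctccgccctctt
Fcrls: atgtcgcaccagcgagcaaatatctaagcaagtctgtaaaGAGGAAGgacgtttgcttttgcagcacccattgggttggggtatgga
C1qc: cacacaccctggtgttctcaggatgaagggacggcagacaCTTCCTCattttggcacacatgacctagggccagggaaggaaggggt
Rbfox3: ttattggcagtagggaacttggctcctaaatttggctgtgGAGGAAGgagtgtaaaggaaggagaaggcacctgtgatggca
Peg3: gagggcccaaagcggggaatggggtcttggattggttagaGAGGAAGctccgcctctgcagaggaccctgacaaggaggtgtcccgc

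Lysosomal genes were higher in microglia almost throughout: 24 of 25 were called, against 8.87% of all tested genes, with a median difference of 4.93. Lyz2, lysozyme, was at 484, 392, 317 and 388 in microglia and at 0, 0, 0.485, 0 and 1.63 in nuclei. Ctsh, a protease with aminopeptidase activity, was at 251 to 336 and did not exceed 0.892 in nuclei. Lamp1 and Hexa differed less than Lyz2, whose difference was 8.22. Lamp1, a main protein of the lysosomal membrane, was at 490, 447, 400 and 427 in microglia and at 21.6 to 28.7 in nuclei, a difference of 3.99 (SE 0.11). Hexa, a subunit of a lysosomal hexosaminidase, was at 368 to 468 and 9.04 to 15.9, a difference of 4.93 that equals the median of the list.

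All 14 tested genes of antigen presentation were called higher in microglia, against 8.87% of all tested genes, with a median difference of 5.37. Cd74, the invariant chain of MHC class II, was at 234, 112, 154 and 214 in microglia and listed at 0 in all nuclei. H2-Ab1, a class II chain, was at 116, 56.9, 81.4 and 121, with the same low library, and did not exceed 0.421 in nuclei. B2m, the light chain of class I, was at 2087, 1612, 1595 and 1785 in microglia and 14.2 to 19.4 in nuclei. H2-K1, a class I heavy chain, was at 118 to 131 and 0.973 to 3.33, but class I genes are near-identical copies that counting can split in an uncertain way. Psmb8, a subunit of the immunoproteasome, was at 78.0 to 93.7 in microglia and listed at 0 in nuclei. Macrophages of the brain borders present antigen too, and the summed level of their markers was 187, 137, 62.2 and 104 in microglia 1 to 4. Their part in the class II values was not tested.

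Immune signalling genes were called higher in microglia for 25 of 26 tested members, against 8.87% of all tested genes, with a median difference of 5.34. The chemokine genes Ccl4 (743, 893, 1073 and 1581 in microglia 1 to 4) and Ccl3 (447, 615, 582 and 996) were listed at 0 in every nuclei library, and both were highest in microglia 4. Ly86, a partner of a Toll-like receptor homologue, was at 547 to 616 and Cd14, the co-receptor for lipopolysaccharide, at 149 to 158, with at most 0.462 in nuclei. Il1a, an inflammatory cytokine, was at 104 to 180 and Tlr2, a receptor for bacterial lipoproteins, at 39.8 to 46.9. Card9, a signalling adaptor, was the member not called, at 2.13 to 5.62 in microglia and 0 to 0.300 in nuclei.

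The largest neuronal difference was that of Meg3, an imprinted noncoding RNA. It was at 3708, 3361, 3403, 3616 and 3573 in nuclei and at 0.105, 0.0569, 0.323 and 0.304 in microglia, a difference of -11.53 (SE 0.09, adjusted p = 6.5e-14). Snhg11, a noncoding host transcript of small nucleolar RNAs, was at 1919, 1785, 1782, 1981 and 1794 in nuclei and at most 0.421 in microglia. Gria2, the AMPA receptor subunit that limits calcium entry, was at 580, 564, 567, 599 and 564 in nuclei and at most 0.345 in microglia. The groups lay far apart for these genes, without overlap. Kalrn, which shapes dendritic spines, was at 318 to 410, Erc2, a scaffold of the presynaptic active zone, at 187 to 209, and Chgb, a protein of secretory granules, at 244 to 319. Arpp21, Xist, Syt1, Trank1, Ipw, Rian, Miat, Peg3 and Atp1b1 completed the 15, with Peg3 at -7.68 and Atp1b1 at -7.65.

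By level, Malat1, a noncoding RNA of nuclear speckles, stood first in nuclei at 19737, 18861, 18751, 18801 and 22376. It was at 116, 104, 128 and 164 in microglia, a difference of -7.27 (SE 0.13). Pnisr, which encodes a splicing-related protein, was at 385 to 427 in nuclei and 3.70 to 7.78 in microglia. R3hdm1 was at 353 to 424 and 1.5 to 2.16.

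All 26 neuron markers were called higher in nuclei, against 27.9% of all tested genes, with a median difference of -5.37, and 25 held in the 3 scalings. Rbfox3, which encodes the NeuN protein by which the nuclei were sorted, was at 100, 97.9, 95.5, 91.7 and 82.3 in nuclei and at 0.0902, 0.299, 0.774 and 0.230 in microglia. Thy1, a surface protein of projection neurons, was at 115 to 137 and 0 to 0.0740, and Camk2a, the kinase of excitatory synapses whose promoter drives tTA in the CK-p25 strain, at 181 to 218 and 0.288 to 1.12. Nsf, the ATPase that takes apart fusion complexes in all cells, had the smallest difference, at 49.0 to 60.2 and 6.41 to 7.83, and its call was lost under other scalings.

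Genes of vesicle release were called higher in nuclei for 23 of 24 members, against 27.9% of all tested genes, with a median difference of -5.45. The active zone scaffolds Pclo (121 to 136 in nuclei, at most 0.0842 in microglia) and Rims1 (132 to 152, at most 0.696) and the endocytic GTPase Dnm1 (134 to 171, at most 0.497) followed Syt1. Vamp2, the vesicle fusion protein, was not called: it was at 57.4, 64.5, 47.3, 58.6 and 52.4 in nuclei and at 13.6, 15.6, 18.6 and 15.2 in microglia. On the receiving side all 24 glutamate receptor and scaffold genes were called, with a median of -6.21. Grin1, the obligatory NMDA receptor subunit, was at 158 to 206 in nuclei and at most 0.0952 in microglia. The AMPA subunits Gria4 (140 to 192) and Gria3 (148 to 170) did not exceed 0.253 in microglia. Dlg4, the scaffold PSD-95, was at 45.6 to 65.8 and at most 0.260, and its relative Dlg3 had the smallest difference, at -2.89, a call lost under other scalings.

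Inhibitory receptors followed the same direction. All 13 tested GABA receptor subunits were called higher in nuclei, against 27.9% of all tested genes, with a median difference of -5.01. Gabbr2, a GABA-B subunit, was at 79.6 to 92.1, with at most 0.177 in microglia. Of 27 tested channel genes 23 (85.2%) were called higher in nuclei and 3 (11.1%) higher in microglia. The shares of all tested genes were 27.9% and 8.87%, so the microglial share lies near that of all genes. The neuronal side held the calcium channel Cacna1e (88.5 to 109 in nuclei) and the sodium channel Scn2a1 (90.8 to 108), which microglia listed at no more than 0.0314. The 3 microglial channels were the proton channel Hvcn1, at 78.4, 80.1, 74.1 and 76.1 in microglia and 0.288 to 1.55 in nuclei, and the background potassium channels Kcnk6, at 30.5 to 43.5 against 0.332 to 1.48, and Kcnk13, at 19.5 to 28.0 against 0.898 to 2.22.

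Of 23 transcription factors of cortical neurons, 19 were called higher in nuclei, against 27.9% of all tested genes, and 16 in the 3 scalings. Myt1l, which represses other lineages in neurons, was at 86.0 to 96.5 in nuclei and at most 0.143 in microglia. Mef2c, Mef2d, Cux1 and Zeb2 were not called. Zeb2 was at 37.1 to 54.4 in nuclei and 8.10 to 10.3 in microglia, and Cux1 at 58.0 to 60.6 and 11 to 16.5.

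The nuclei carried RNA of both excitatory and inhibitory neurons. Markers of GABA neurons were called higher in nuclei for 11 of 13 tested members, and markers of excitatory neurons and cortical layers for 13 of 16. The share of all tested genes was 27.9%. Sst, the peptide somatostatin, was at 88.8, 113, 91.5, 96.0 and 117 in nuclei and at most 0.593 in microglia. Npy, a peptide of overlapping interneurons, ranged widely among nuclei, at 41.9, 56.0, 67.0, 83.7 and 101, and Vip at 17.7, 18, 18.8, 27.1 and 42.4. Both were highest in nuclei 5. Gad1, which makes GABA, was even, at 18.5 to 20.8. Pvalb, the marker of fast-spiking interneurons, was low and uneven at 2.12, 7.09, 5.95, 4.23 and 9.07 in nuclei, at most 0.169 in microglia, and was not called. Lamp5 (36.0 to 41.7) and Rgs4 (36.9 to 49.9) had the largest differences of the layer list after Slc17a7. The layer markers Tle4 (13.5 to 17 in nuclei and 5.42 to 6.68 in microglia), Etv1 and Bcl6 were not called.

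**Figure D3:**
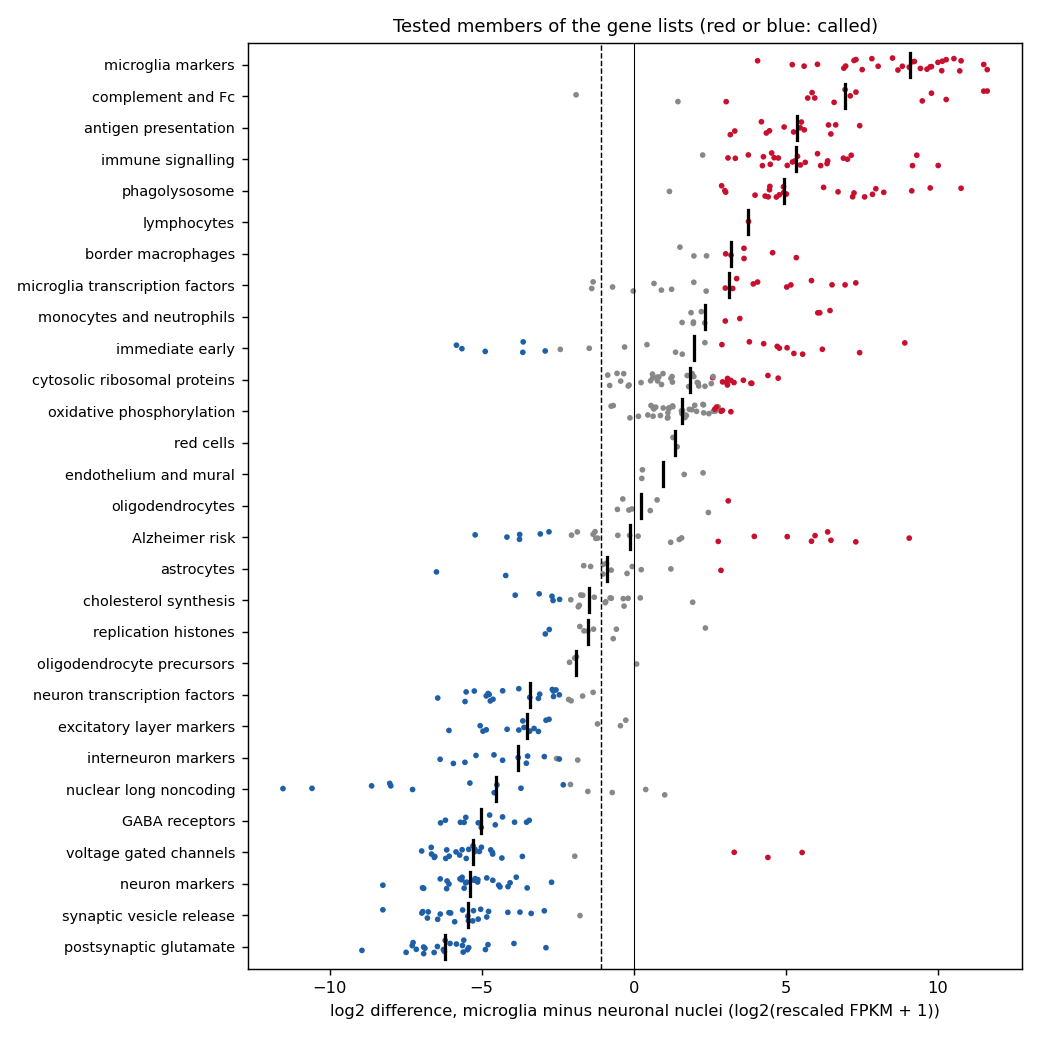
Difference of each tested member of 29 gene lists, microglia minus neuronal nuclei on the log2(rescaled FPKM + 1) scale, with lists ordered by their median (black bar). Red points are members called higher in microglia, blue points members called higher in nuclei and grey points those not called. The solid vertical line marks 0 and the dashed one the median of all tested genes at -1.08. Lists of microglial function lie to the right, lists of synaptic function to the left.

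Related genes often traded places between the cell types. In 37 pairs, a gene entered as the general or immune form was set beside a relative entered as the neuronal form. The general form had the higher level in microglia in 34 pairs and the neuronal form the higher level in nuclei in 32. Both held in 29. Levels are per transcript length. These were pairs picked for known cell type bias, so the counts describe the list. Hexa, though entered as a neuronal form, was itself called higher in microglia, at 368 to 468 against 9.04 to 15.9 in nuclei. The form names are thus those of the list. Both members were called, in opposite directions, in 9 pairs. Microglia held the fructose transporter Slc2a5 at 183 to 232 and nuclei the glucose transporter Slc2a3 at 20.6 to 23.8, where the other group had at most 0.296 of Slc2a5 and 2.25 of Slc2a3. The actin regulators Nckap1l and Nckap1, subunits of the WAVE complex, were at 77.0 to 83.6 and 0.261 to 1.41 in microglia and at 0.283 to 1.12 and 52.8 to 70.1 in nuclei. The Rac activators Dock2 and Dock3 were at 23.0 to 29.3 and at most 0.0394 in microglia and at most 0.328 and 62.5 to 77.2 in nuclei. Camk1 with Camk2a, Coro1a with Coro2b, Pik3cg with Pik3ca and Tcirg1 with Atp6v0a1 were also among the 9. The calls of Pik3ca, Atp6v0a1 and the tyrosine kinase Src, also entered as a neuronal form, were lost under other scalings. With small RNAs kept those of Slc2a3 and Coro2b were lost too.

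In 11 more pairs only the neuronal form was called. Ptbp2 is counted in these, and in the totals above, with both Ptbp1 and Ptbp3. The RNA-binding protein genes Elavl1 and Elavl2 show the pattern: Elavl1, used by most cells, was at 12.5 to 15.4 in nuclei and 10.3 to 12.8 in microglia, while Elavl2 was at 22.2 to 26.0 in nuclei and listed at 0 in all microglia. The splicing regulator Ptbp2, the neuronal form of Ptbp1, was at 36.4 to 46.3 in nuclei and 1.68 to 2.16 in microglia, and Ptbp1 was at 10.1 to 11.4 and 30.8 to 38.6. Tubb5 was at 19.1 to 24.7 in nuclei and 13.4 to 15.6 in microglia, and the neuronal tubulin Tubb3 at 16.6 to 19.4 and at most 0.273. The calls of Ptbp2 and Tubb3 were lost with small RNAs kept. In 10 pairs only the general form was called, as for Vamp8, a fusion protein of endosomes, at 139 to 152 in microglia and listed at 0 in nuclei, beside Vamp2.

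**Figure D4:**
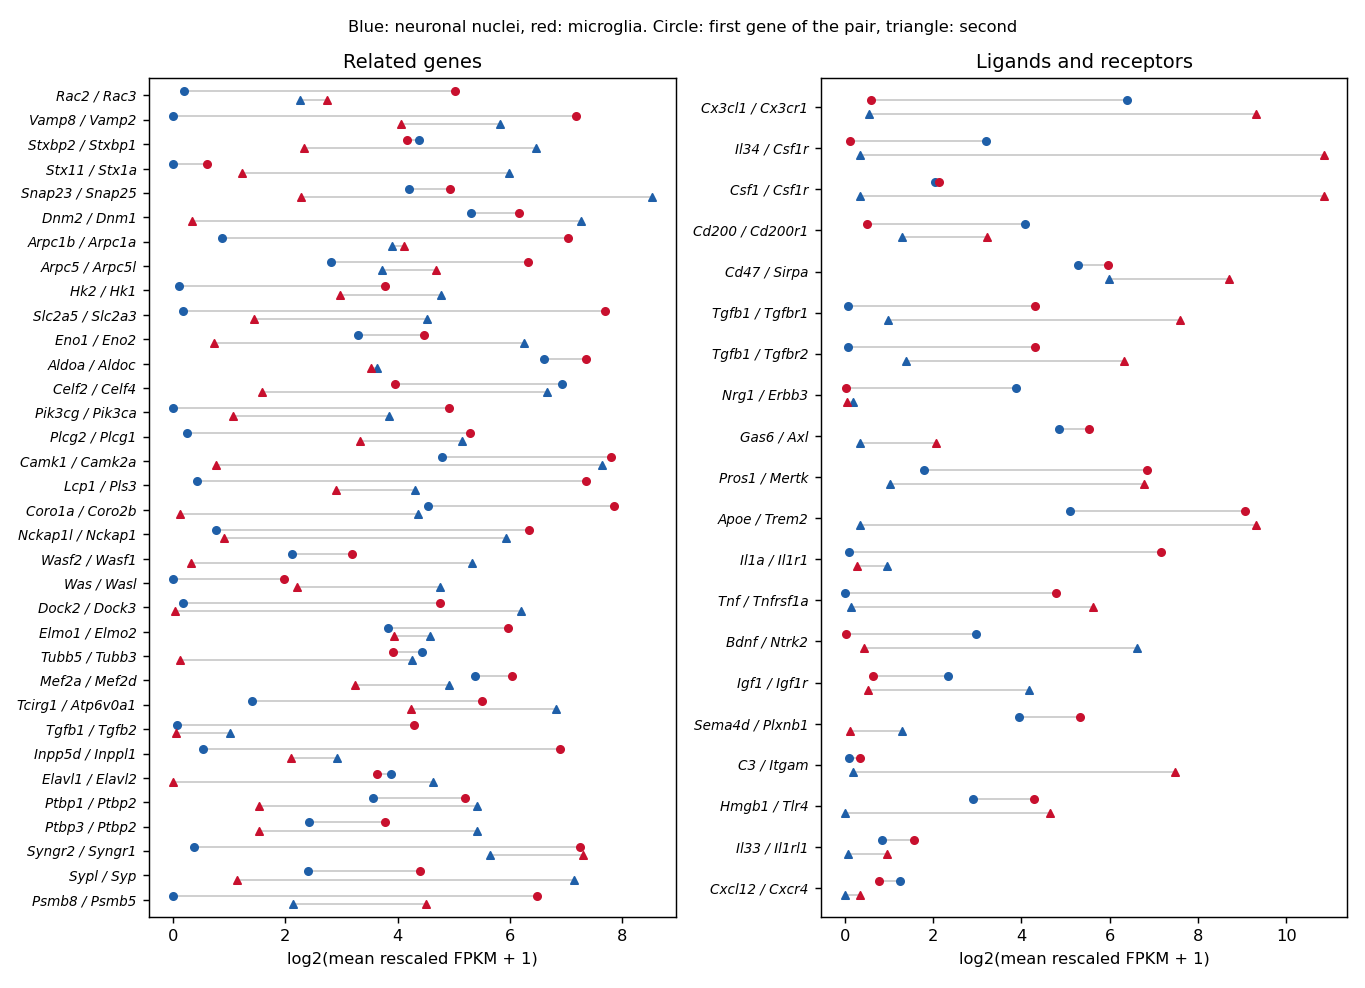
Mean levels, as log2(mean rescaled FPKM + 1) on the x axis, of 34 of the pairs of related genes (left) and 20 of the pairs of a ligand and a receptor (right), in neuronal nuclei (blue) and microglia (red). Circles are the first gene named in a pair and triangles the second, joined by a grey line between the groups. Elavl2 and Tubb3 lie near 0 in microglia while Elavl1 and Tubb5 lie at similar levels in both groups, and Cx3cl1 and Cx3cr1 lie at opposite ends.

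Among 21 pairs of a ligand and its receptor, the ligand was called higher in nuclei and the receptor higher in microglia in 2. The pairs are a selection, so counts of them describe the list. Of all tested genes 27.9% were called higher in nuclei and 8.87% higher in microglia. Cx3cl1, fractalkine, was at 82.5, 81.6, 89.9, 81.4 and 80.9 in nuclei and at 0.00701, 0.423, 0.838 and 0.768 in microglia, opposite to its receptor Cx3cr1. Il34, a ligand of Csf1r, was at 8.78, 6.55, 9.07, 11.3 and 5.48 in nuclei and at most 0.230 in microglia. Csf1, the other ligand of that receptor, overlapped between the groups, at 2.38 to 4.04 in nuclei and 2.28 to 3.92 in microglia. Cd200, a ligand that calms microglia, was called at 10.04 to 23.4 in nuclei and 0 to 1.04 in microglia, but its receptor Cd200r1 was not, at 0.594 to 2.24 and 5.32 to 10.6. Sirpa, the receptor of Cd47, was called higher in microglia at 382 to 445 against 57.9 to 67.3, and Cd47 was at 56.5 to 65.7 in microglia and 33.7 to 45.1 in nuclei. The calls of Il34 and Cd200 were lost with small RNAs kept.

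Both members were called higher in microglia in 6 of the 21 pairs, where 8.87% of all tested genes were called higher in microglia. Tgfb1 is counted in the 6 with both Tgfbr1 and Tgfbr2. Tgfb1, a cytokine that sustains the microglial state, was at 16.9 to 22.8 in microglia and at most 0.225 in nuclei. Its receptors were on the same side, Tgfbr1 at 169 to 234 against 0.389 to 1.29 and Tgfbr2 at 72.8 to 90.0 against 0.477 to 2.20. The bridging ligand Pros1 and the phagocytic receptor Mertk were at 95.3 to 123 and 100 to 118 in microglia. Apoe with Trem2 and Tnf with Tnfrsf1a were also among the 6. Bdnf, a neurotrophin, and its receptor Ntrk2 were both called higher in nuclei, at 4.36 to 8.85 and 86.5 to 105. Igf1, a growth factor often assigned to microglia, was at 2.36 to 5.99 in nuclei and 0.319 to 1.01 in microglia and was not called, and its receptor Igf1r was called higher in nuclei at 15.4 to 18.3 against 0.331 to 0.527, a call lost with small RNAs kept.

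Of 27 tested genes named in studies of Alzheimer disease risk, 9 (33.3%) were called higher in microglia, against 8.87% of all tested genes. Another 6 (22.2%) were called higher in nuclei, a share near the 27.9% of all tested genes, and 12 were called in neither, with a median difference of -0.14 that was 0.90 under median-ratio scaling. The microglial genes were Trem2, Spi1, Cd33, Inpp5d, Ms4a6d, Abi3, Plcg2, Apoe and Cass4, and the call of Cass4 was lost without microglia 3 and 4. Cd33, an inhibitory lectin receptor, was at 108, 89.1, 86.1 and 89.1 in microglia and at most 0.265 in nuclei, and Inpp5d, a lipid phosphatase that damps receptor signals, at 112 to 130 against 0.155 to 0.806. Apoe, the lipid carrier, was at 760, 583, 395 and 411 in microglia and also at 24.5, 30.3, 47.1, 23.2 and 42.7 in nuclei. The neuronal genes were Mapt, Slc24a4, Sorl1, Fermt2, App and Cd2ap. Mapt, which encodes tau, was at 43.7 to 60.4 in nuclei and 0.153 to 0.806 in microglia. App, the amyloid precursor, was at 314 to 343 and 33.5 to 41.1, a difference of -3.07 whose call was lost under other scalings, as was that of Cd2ap. Those of Slc24a4, Sorl1 and Fermt2 were lost with small RNAs kept. Bin1 (67.3 to 79.4 in nuclei and 163 to 182 in microglia) and Picalm (19.3 to 26.8 and 18.1 to 23.6) were not called.

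Of 24 tested early response genes, which are induced within minutes of a stimulus, 11 (45.8%) were called higher in microglia, against 8.87% of all tested genes. Another 6 (25%) were called higher in nuclei, a share near the 27.9% of all tested genes. Fos, a subunit of the AP-1 factor, was at 352, 282, 507 and 533 in microglia and at 14.1, 3.68, 4.72, 18.2 and 5.21 in nuclei. Jun was at 344, 364, 573 and 628 in microglia and 3.73 to 7.32 in nuclei, and Atf3, a stress-induced factor, at 138, 120, 203 and 255, listed at 0 in nuclei. Zfp36, which destabilises cytokine messages, was at 405, 374, 622 and 687 and at most 0.271 in nuclei. Microglia 3 and 4 were above microglia 1 and 2 for each of these 4 genes, and the same libraries carried more myelin RNA (Mbp at 261 and 378 against 37.0 and 43.5), whose part was not tested. Among the 6 were genes that neurons induce with activity. Arc was at 94.5, 55.2, 49.5, 122 and 69.7 in nuclei and at most 0.972 in microglia, and Npas4 was at 33.4, 24.6, 25.5, 36.5 and 24.6 and listed at 0 in microglia. Homer1, Nr4a2, Egr3 and Bdnf were the other 4, and the calls of Nr4a2 and Egr3 were lost with small RNAs kept. Nuclei 1 and 4 were the highest for Fos, Arc and Npas4. Egr1 was at 52.4 to 105 in nuclei and 181 to 317 in microglia and was not called.

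Counts for genes of cytoplasmic machinery depended on the scaling. Of 42 ribosomal protein genes 12 (28.6%) were called higher in microglia, against 8.87% of all tested genes, and 0 higher in nuclei, with a median difference of 1.86. The count was 23 under median-ratio scaling, where 15.9% of all tested genes were called. Rpl18 was at 40.2, 41.3, 43.0 and 35.2 in microglia and at 0.999, 0, 0.841, 1.19 and 0 in nuclei. Rpl3 was at 23.6 to 26.4 and 21.4 to 33.0, so not every member differed. With equal sums, every microglia library was above every nuclei library for 33 of these 42 genes, against 25.6% of all tested genes. Every nuclei library was the higher for 2, against 56.7%. Ribosomal protein genes have many processed pseudogenes, and the share of reads lost to them is not known. Of 42 genes of oxidative phosphorylation 5 (11.9%) were called higher in microglia, a share near that of all tested genes, and 0 higher in nuclei, with a median of 1.59. Under median-ratio scaling 23 were called higher in microglia, where 15.9% of all tested genes were called. With equal sums, every microglia library was above every nuclei library for 35 of the 42, against 25.6% of all tested genes. The reverse held for 2, against 56.7%. Ndufa1, a subunit of complex I, was at 63.3 to 88.3 in microglia and 4.70 to 13.1 in nuclei, the largest difference of that list.

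Long noncoding RNAs were called higher in nuclei for 11 of 16 tested members, against 27.9% of all tested genes, and for 10 in the 3 scalings. Among them Xist, its antisense partner Tsix and Firre (a call lost with small RNAs kept) are X-linked, and the strand setting of the counting is not stated, so reads of antisense partners cannot be told apart. Kcnq1ot1, an imprinted antisense RNA that silences its neighbours, was at 41.0 to 45.5 in nuclei and 0.0280 to 0.0683 in microglia. Neat1, the scaffold of paraspeckles and also a nuclear RNA, was not called and was at 4.75 to 9.85 in microglia and 2.21 to 4.03 in nuclei. Replication histones, whose messages lack a poly(A) tail, gave 2 of 9 tested calls, Hist1h1e and Hist1h4h, both higher in nuclei and both lost under other scalings. Of 20 tested genes of sterol synthesis 5 were called higher in nuclei, and 1 of these calls held in the 3 scalings. These shares, 2 of 9 and 5 of 20, lie near the 27.9% of all tested genes.

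The genes called higher in nuclei were long. Their median length was 58.8 kb, against 14.7 kb for genes called higher in microglia, 20.7 kb for tested genes not called and 25.4 kb for all tested genes (GENCODE M21). Genes of at least 100 kb made up 33.4% of the neuronal calls and 6.55% of the microglial ones. Intronic reads of nuclear RNA and the size of neuronal genes were not separated.

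Markers of other cell types were present in both sorts. The summed level of 15 astrocyte markers was 189 to 240 in nuclei and 81.8 to 141 in microglia. In nuclei it came largely from Slc1a2, a glutamate transporter, at 116 to 149, called higher in nuclei with Slc4a4 (a call lost with small RNAs kept), while Gfap was at 0.883 to 3.03. Slc1a3, another glutamate transporter of astrocytes, was called higher in microglia, at 31.0 to 42.2 against 3.22 to 4.88, and the other 10 of 13 tested were not called. The astrocyte shares were 15.4% higher in nuclei and 7.69% higher in microglia, against 27.9% and 8.87% of all tested genes. Macrophages of the brain borders were represented in microglia by Pf4 (66.8, 49.6, 20.2 and 36.5), Stab1, Cbr2, F13a1, Mrc1 and Ms4a7. These were 6 of 9 tested genes, against 8.87% of all tested genes, and Mrc1 was at 15.1, 10.4, 3.38 and 8.71. The sum of the list was at most 0.548 in nuclei, where 5 of its 10 genes were listed at 0 throughout. Markers of monocytes and neutrophils summed to 221 to 320 in microglia and at most 0.418 in nuclei, led by S100a8 (86.5, 59.8, 100 and 108), S100a9 and Csf3r, and Ccr2 and Ly6c2 were not called. Of these 13 markers 12 were listed at 0 in all nuclei. The 14 lymphocyte markers in the files summed to 14.7 to 27.5, of which Cd79b, called higher in microglia, was 7.63 to 15.5. Of oligodendrocyte precursor, endothelial and red cell markers 0 of 4, 0 of 4 and 0 of 2 tested genes were called. With so few tested genes and these shares of all genes, a count of 0 does not show that such cells were absent. Their sums were 10.4 to 16.4, 6.65 to 15.3 and 1.31 to 3.95 in nuclei and 0.653 to 4.23, 9.55 to 27.5 and 4.25 to 33.5 in microglia. The part of such cells in the microglial values of shared immune genes was not tested.

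**Figure D5:**
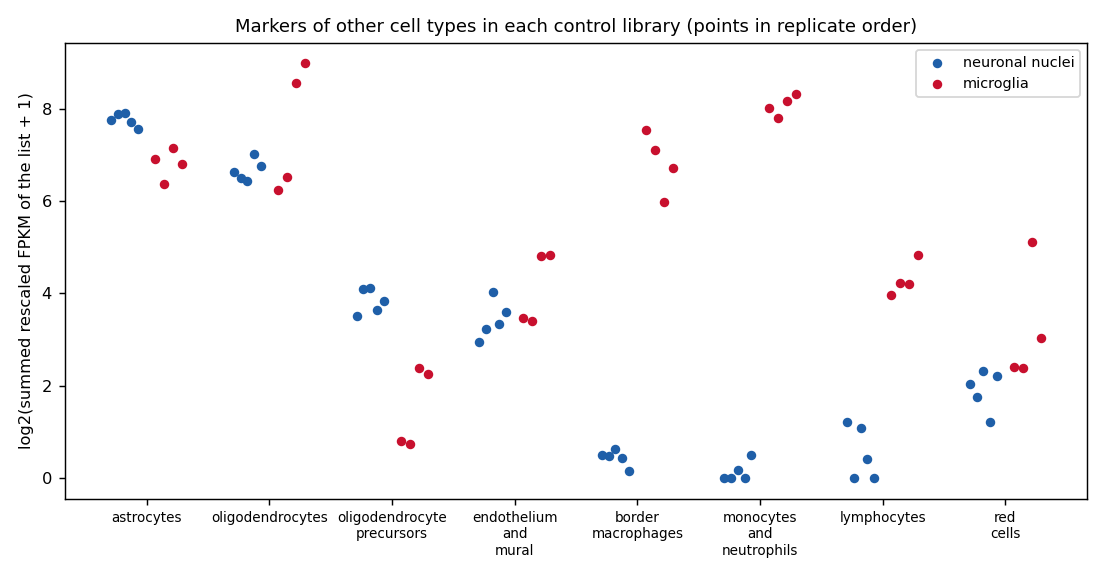
Summed level of the markers of 8 other cell types in each control library, as log2(sum of rescaled FPKM + 1), for 5 libraries of neuronal nuclei (blue) and 4 of microglia (red), with points in replicate order. Border macrophage and monocyte or neutrophil markers are near 0 in nuclei, and the oligodendrocyte sum in microglia 3 and 4 is above that in all other libraries.

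Myelin RNA set microglia 3 and 4 apart. The summed level of 12 oligodendrocyte markers was 74.7, 90.4, 376 and 505 in microglia 1 to 4 and 86.0 to 128 in nuclei. Mbp, myelin basic protein, was at 37.0, 43.5, 261 and 378 in microglia. Cnp, an enzyme of myelin, was the oligodendrocyte gene called higher in microglia, at 24.2, 28.6, 39.3 and 40.5 against 1.81 to 4 in nuclei. Mbp, Plekhb1, Kif5a and Snhg9 were among the 5 genes with the largest spread among microglia, of those with a mean of at least 10. Kif5a, a motor protein of neurons, was at 3.31, 4.75, 26.7 and 26.4 in microglia and 96.5 to 119 in nuclei. Of the 5 genes 0 were called. Without microglia 3 and 4 the test called 979 genes higher in microglia and 3341 higher in nuclei, and the calls of Cass4, Hist1h1e, Snurf and Src were lost.

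Among nuclei, the largest spread was in Snrpn and Snurf, which overlap in the imprinted Snrpn locus and share transcripts. Snrpn was at 165, 158, 172, 6.09 and 2.27 in nuclei 1 to 5 and Snurf at 10.3, 12.5, 10.9, 173 and 164. The values traded places between libraries 1 to 3 and 4 to 5, so reads of the locus cannot be assigned to either gene with certainty. Snurf was called higher in nuclei, a call lost with small RNAs kept, and Snrpn, at 0.491 to 3.77 in microglia, was not. Rpl34, Gdf1 and Ndufa2 followed in spread, and Rpl34 was at 15.9, 0.000221, 15.6, 7.04 and 39.8.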

How the data were processed

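Each of the 9 libraries was deposited by the authors as a table of FPKM values for 23953 gene symbols. The submitters' processing notes list STAR, Cufflinks 2.0.0 and mm9, without role or order. For annotation, strand setting and filters nothing is given in the sources used here. FPKM values are no counts and the depth is unknown, so no counting interval is given, and an exact 0 is only a listing.

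A total of 1206 symbols of small RNA genes were dropped by their first letters, which also removed Mirg. Libraries were rescaled to the median sum of the rest, and genes with a mean of at least 1 over the 9 libraries (12592) were tested on log2(value + 1) with limma 3.58.1 in R 4.3.3 (treat, empirical Bayes with a mean-variance trend, two-sided). A gene high in 1 group passes that filter through that group. Library values were compared by exact permutation tests (scipy 1.17.1).

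Named genes are the 6 markers, the 15 largest called differences with no overlap in each direction, the 10 highest levels in each group, for each list the 4 largest differences and members called against the list, members of the pairs, and the 5 most variable genes of each group, leaving out predicted and clone names. Some genes of the rule are not reported here. List members that were not called or had the smallest difference of a list, and examples such as Lamp1, Fli1, Runx1, Gad1, Vip and Pvalb, were added after their values were seen, as were the Y-linked genes. The members and the 29 lists were chosen with earlier results of these data known. Replicate numbers do not pair the groups: deviations of same-numbered libraries correlated at -0.035 to 0.031, and of others at -0.027 to 0.038. Gene lengths are from GENCODE M21 and promoters from RefSeq, GRCm38.p6, matched by symbol.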

Additional observations from a re-analysis of the deposited data

Results flagged for a closer look

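In 293 groups of libraries (genes named above with a group mean of at least 1, and library values), 1 library stood apart from the rest of its group in 19, by a gap larger than Dixon's 95% critical value relative to the group's range. Chance flags about 1 in 20 groups.

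Nuclei 5 had the largest share of FPKM in small RNAs (83.7%, the others 73.5% to 76.0%), the largest shares in its 10 and 100 highest genes (14.8% against 12.5% to 12.9%, and 22.7% against 20.1% to 20.5%), the highest Malat1 (22376 against 18751 to 19737) and the lowest Arpp21 (584 against 705 to 723). Nuclei 4 stood above the other nuclei in H2-K1 (3.33 against 0.973 to 1.46). Nuclei 1 stood below in Coro2b (15.2) and Lamp1 (21.6), nuclei 2 above in Src (11.5) and Tubb5 (24.7), and nuclei 3 above in Cx3cl1 (89.9).

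Microglia 1 stood above the other microglia in Cd33 (108) and Ms4a6d (76.8), microglia 2 in Inpp5d (130), Pik3cg (34.4) and Tgfb1 (22.8), and microglia 4 in Cd2ap (3.78). Microglia 3 stood below in Pros1 (95.3) and above in the summed red cell markers, at 33.5 against 4.25 to 7.12. Each of the called genes among these kept its call and direction in every fit that left out 1 library, apart from Src, which lost it in 5 of 9.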

How the results depend on the processing

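The counts moved with the width of the null interval and the scaling. A 2-fold interval called 2123 genes higher in microglia and 5662 higher in nuclei, and an 8-fold one 555 and 1962. The deposited values called 2048 higher in microglia, median-ratio scaling 2041, and keeping small RNAs 2598 against 1035 in nuclei. The all-gene median moved from -1.08 to 0.86 with small RNAs kept. Genes at 5 or more in 1 group and under 0.5 in the other numbered 265 for microglia and 1452 for nuclei, and deposited values left 277 for nuclei. With a 2-fold interval 1704 microglial and 5473 neuronal calls were shared with the CK-p25 libraries. Of the 166 genes named here and called, 26 lost the call under the 8-fold interval, 24 under a scaling (among them Tubb3, Slc2a3 and Il34 with small RNAs kept), and Src alone when a library was left out. Genes that were no longer tested under a setting, such as Bdnf with small RNAs kept, are not among these. Direction reversed for 0 called genes. Leaving out each library gave 1055 to 1116 microglial and 3389 to 3544 neuronal calls, 107 to 129 and 446 to 542 genes at 10 or more in 1 group only, and a difference in the oligodendrocyte sum of 78.8 to 222 and in the red cell sum of 2.35 to 12.1. Without microglia 3 and 4, a choice made after seeing the data, 979 and 3341 genes were called, and Cass4, Hist1h1e, Snurf and Src lost the call. With the replicate number as a block 1114 and 3483 genes were called, and the numbers do not pair the libraries. Other causes were not tested. Depth is unknown, so what it limits cannot be stated.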

Other observations

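The cell type contrast was also read in the CK-p25 libraries. There too the compartment, the antibody and the sex-linked RNA changed with the cell type. Tmem119, Selplg and P2ry12, markers of the homeostatic microglial state, had differences of 8.18, 7.99 and 8.04 there, against 10.15, 10.13 and 10.002 in the controls. Ccl4, a chemokine, had 11.21 against 10.01, and C1qb 10.86 against 11.62. Of the control calls that could be tested there, 2 of 1101 microglial and 1 of 3508 neuronal ones had a difference of the opposite sign. They are named because their values were seen. Ctsd, the second highest gene of control microglia, had a difference of -1.75 (limma treat, adjusted p = 1), against 7.85 in the controls. It was listed at 0 in 3 of the 4 CK-p25 microglia libraries and at a level of 9737 in the other, and at 28.7 to 37.3 in the CK-p25 nuclei. The listing at 0 may not measure the absence of its RNA, and its cause was not tested. Bank1 had -0.37 against 3.30, and Bhlhe40 0.05 against -3.01. The difference between the contrasts was not tested.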
